A study of Mus musculus with 6 samples.

Results

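The genes of the MYC, MAX and MXD network were examined in 6 RNA-seq libraries of mouse mammary cells. The 10 genes are *Myc*, *Mycn*, *Max*, *Mxd1*, *Mxd3*, *Mxd4*, *Mxi1*, *Mnt*, *Mga* and *Mlx*. Each was found by its symbol in the deposited expression table, which holds values for 37753 entries, and all 10 were present. The values are FPKM, fragments per kilobase of exon scaled to the mapped fragments of the library, so levels are per length of transcript and can be set side by side between genes.

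Both groups were of the C57/Bl6J strain and carried a Cre recombinase gene (WAPCre+), which is driven by a milk protein promoter that is active in luminal cells in late pregnancy and lactation. MEC are primary mammary epithelial cells, in 3 preparations, each from the pooled glands of 3 to 5 virgin females of 10 to 12 weeks. They were grown on collagen I with 5% fetal calf serum, EGF and insulin, and RNA was taken at 90% confluence. MEKO are the breast tumor cell lines WAB 199, WAB 233 and WAB 336 (Mapk8KO Mapk9KO Cre+), labelled as knockouts of the genes for the JNK kinases JNK1 and JNK2. Each line came from its own tumor, was kept on collagen for 2 passages and then on plain dishes with 10% fetal bovine serum, and gave 1 library. The tumors arose in parous mice, and the age of the mouse behind each line is not given in the sources used here. The groups differ in genotype, tumor origin, parity, time in culture and medium together, and these cannot be told apart.

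MYC proteins activate transcription. They bind DNA as pairs with MAX at the E-box CACGTG and recruit histone acetyltransferase complexes. MXD proteins, MNT and MGA also pair with MAX and bind the same sites, but recruit corepressors. Partners of MLX include the MONDO proteins MLXIP and MLXIPL, which respond to glucose. *Myc* is a known driver of breast tumors and a target of growth factor and WNT signaling.

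Of the 9 network genes with a RefSeq promoter entry, 4 carry the CACGTG E-box itself in the 300 bases around their start (250 before to 50 after). The windows below are 30 bases of RefSeq sequence (build GRCm38.p6), written 5′ to 3′ on the strand of the gene, with the motif in capitals. They are shown because they are sites of the kind that the network's own proteins bind.
*Max*, chr12:76962234-76962263, minus strand: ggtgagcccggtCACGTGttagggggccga
*Mlx*, chr11:101087238-101087267, plus strand: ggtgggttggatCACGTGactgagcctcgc
*Mnt*, chr11:74830789-74830818, plus strand: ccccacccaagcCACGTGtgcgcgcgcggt
*Mxd4*, chr5:34187912-34187941, minus strand: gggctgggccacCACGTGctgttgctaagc

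Counted per promoter, 4 of 11 entries for network genes held CACGTG, against 7.15% of all 32851 promoters in the table and 9.98% of the promoters of the tested genes. The related sequence CACGCG, read on both strands, was found in the *Mga* promoter, in 9.27% of all promoters and in 17.0% of those of tested genes. The first base of the motif lies 3 bases before the start of *Max*, 40 before *Mlx*, 123 before *Mnt* and 219 before *Mxd4*. None of the 11 entries held the AP1 motif TGANTCA, which 7.81% of all promoters and 5.33% of those of tested genes hold. These matches describe letters in a window and do not show binding.

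Before the network, the targeted genes and the makeup of the libraries were checked. *Mapk8*, which encodes JNK1, had between 19.2 and 25.1 FPKM in MEC and 5.93, 3.12 and 1.37 FPKM in lines 199, 233 and 336. *Mapk9*, which encodes JNK2, had 21.5 to 24.4 FPKM in MEC and 7.62, 3.155 and 3.07 FPKM in the lines in that order. Of the lines, 199 kept the most of both, 26.4% of the MEC mean for *Mapk8* and 33.6% for *Mapk9*. The summed level of 5 luminal markers was 5308 to 8869 FPKM in MEC and 789 to 1962 FPKM in MEKO, and 4 of the 5 (*Epcam*, *Krt8*, *Krt19* and *Cdh1*) were lower by the test below. The 5 basal markers summed to 1259 to 2201 FPKM in MEC and 1865 FPKM in line 199, but to 9.90 FPKM in line 233 and 45.0 FPKM in line 336. The 5 fibroblast markers summed to 1009 FPKM in line 199, nearly all of it collagen mRNA, while *Dcn* was at 0.31 FPKM there and no other library was above 121 FPKM. The 4 endothelial markers summed to 13.3 and 15.2 FPKM in MEC 1 and MEC 2 and to at most 1.64 FPKM elsewhere. Among leukocyte markers, *Ptprc*, *Cd3e* and *Cd79a* were below 0.4 FPKM in every library, and *Cd68* reached 23.4 FPKM in line 336. The 4 adipocyte markers summed to 7.75, 11.8 and 1.48 FPKM in MEC 1, 2 and 3 and to at most 1.19 FPKM in the lines. Of these 4, *Plin1* was at 0 in all 6 libraries. The part of these markers in the values below was not tested.

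*Myc* was the most abundant of the 10 genes and the only one called between the groups. *Myc* (ENSMUSG00000022346.15, GRCm38 chromosome 15, 61985391 to 61990374, plus strand) had 73.8, 78.4 and 45.3 FPKM in MEC 1, 2 and 3. Lines 199, 233 and 336 had 138, 147 and 112 FPKM. All 3 lines lay above all 3 MEC preparations, and MEC 3 was the lowest of the 6. The mean rose from 65.8 ± 17.9 FPKM to 132 ± 18.5 FPKM (SD, n = 3). On the log2(FPKM + 1) scale the increase was 1.03 (standard error 0.25, 95% interval 0.44 to 1.62), with a limma adjusted p of 0.0486. A gene was called where the adjusted p was under 0.05 and the log2 fold change was beyond 0.75 either way.

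The call of *Myc* stands at the edge of the threshold. It was kept under 1 of 13 other ways of processing, and the adjusted p ranged from 0.0362 to 0.128 over them, while the increase stayed between 0.78 and 1.17. Leaving out any single library, MEC 1, 2 or 3 or line 199, 233 or 336, put the limma adjusted p between 0.0659 and 0.128. By an exact permutation test (two-sided) p was 0.1, the smallest that 3 libraries against 3 allow. In bulk RNA, more cells of a type and more RNA per cell cannot be told apart.

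MEC 3 was also the lowest library for all 10 genes of a proliferation list. *Mki67*, a marker of cycling cells, had 17.4 and 18.1 FPKM in MEC 1 and 2 and 6.20 FPKM in MEC 3, against 25.0 to 31.8 FPKM in the lines. The summed level of the 10 proliferation genes was 265 FPKM in MEC 3, 591 and 630 FPKM in the other MEC, and 690 to 1054 FPKM in MEKO. Without MEC 3 the increase of *Myc* was 0.78 on the log2(FPKM + 1) scale. The part of proliferation in the level of *Myc* was not tested.

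**Figure D1:**
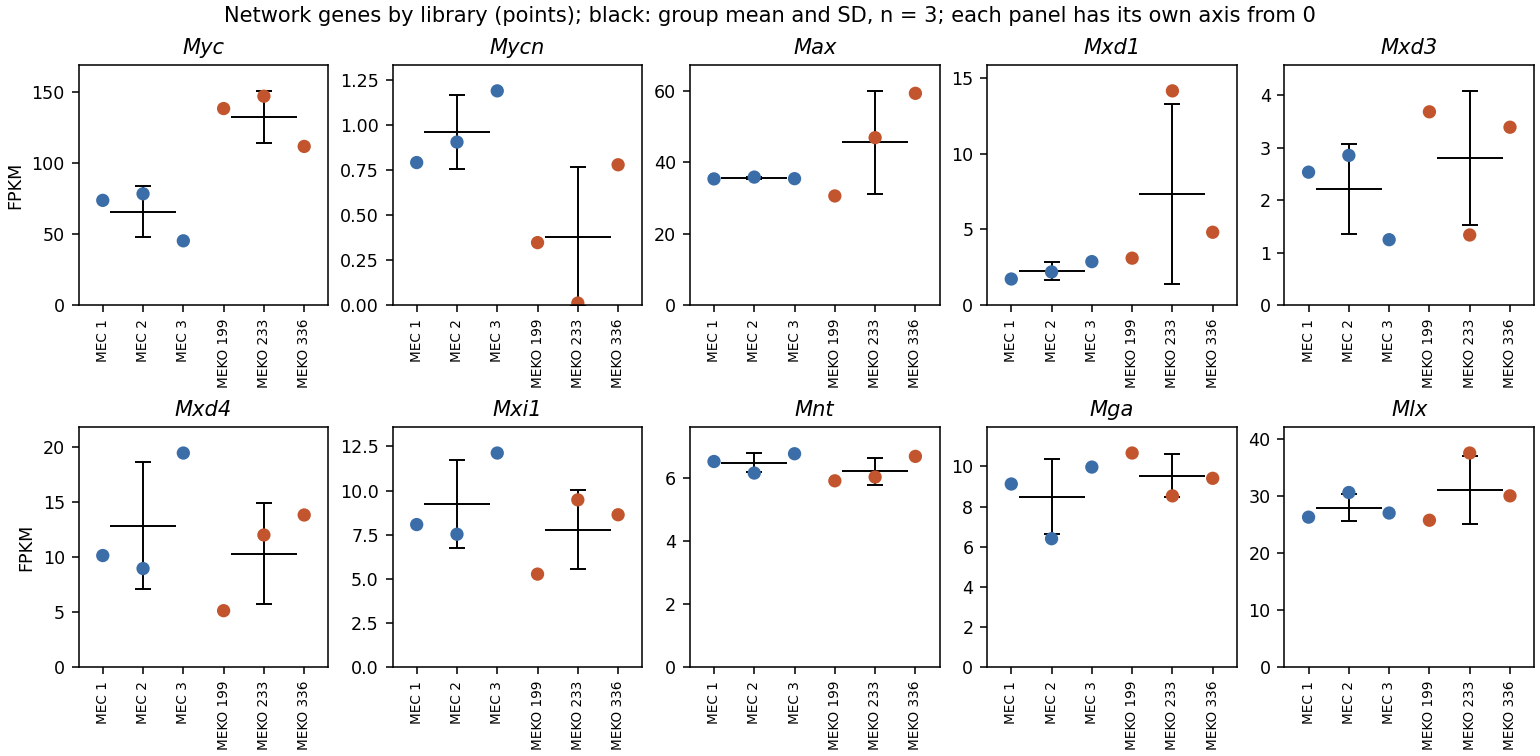
FPKM of the 10 network genes in each library (blue, MEC; orange, MEKO lines), with the group mean and SD in black (n = 3 per group) and a separate axis from 0 in each panel. *Myc* and *Mxd1* are higher in all 3 lines than in all 3 MEC, and the 3 MEC values of *Max* almost coincide near 35 FPKM while the lines spread from 30.5 to 59.2 FPKM.

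Of the 9 network genes with a mean of at least 1 FPKM, 1 was called higher, against 2.64% of all 12461 tested genes (329 higher), and 0 were called lower, against 7.26% (905 lower). After quantile normalization the same test called 477 genes higher and 783 lower. At an unadjusted limma p under 0.05, 1 network gene was higher and 0 were lower, against 12.4% and 15.7% of all tested genes. The median log2 fold change of the 9 genes was 0.16, beside 0.01 for all tested genes. In 2 of the 9 genes, *Myc* and *Mxd1*, all lines were above all MEC, and in 0 they were all below. This arrangement was found in 18.5% and 18.7% of all tested genes respectively.

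*Mycn* encodes N-MYC, which takes the place of MYC in neural and some embryonic tissues. It (ENSMUSG00000037169.15, chromosome 12, 12936093 to 12941914, minus strand) was the least abundant of the 10. Its FPKM was 0.79, 0.90 and 1.19 in MEC, and 0.35, 0.01 and 0.78 in lines 199, 233 and 336. With a mean below 1 FPKM it was left out of the test, although the lines lay below all MEC. *Mycl*, which encodes L-MYC and was examined beside the 10, had 6.53, 10.6 and 3.90 FPKM in MEC and 7.17, 0.31 and 1.01 FPKM in lines 199, 233 and 336. Its log2 fold change was -1.44 with a limma adjusted p of 0.24, and line 199 fell within the range of MEC while the other two lay below it. Without line 199, where calls over all genes rose to 4.57% higher and 11.2% lower, *Mycl* was called lower (-2.22, limma adjusted p = 0.0228).

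*Max* encodes the shared partner. *Max* (ENSMUSG00000059436.13, chromosome 12, 76937269 to 76962201, minus strand) had 35.3, 35.8 and 35.3 FPKM in MEC. The lines had 30.5 FPKM (199), 46.8 FPKM (233) and 59.2 FPKM (336). Line 199 was below every MEC preparation, and lines 233 and 336 were above every one. The SD was 0.271 FPKM among the MEC and 14.4 FPKM among the lines. The log2 fold change between the groups was 0.30 (95% interval -0.29 to 0.90, limma adjusted p = 0.46). It was 0.56 without line 199 (limma adjusted p = 0.0608) and 0.09 without line 336 (limma adjusted p = 0.809).

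*Mxd1* encodes MAD1, an antagonist of MYC that is induced as cells leave the cycle and differentiate. It (ENSMUSG00000001156.9, chromosome 6, 86647042 to 86669161, minus strand) had 1.72, 2.19 and 2.87 FPKM in MEC. Lines 199, 233 and 336 had 3.10, 14.2 and 4.81 FPKM. The groups did not overlap, but line 199 exceeded MEC 3 by little and line 233 stood well above the rest. The log2 fold change was 1.14, with a standard error of 0.49 and a 95% interval of -0.03 to 2.32 (limma adjusted p = 0.188). Without line 233 it was 0.60 (limma adjusted p = 0.24). The exact permutation p was 0.1.

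*Mxd3*, which unlike *Mxd1* is known to be expressed in cycling cells, had 2.54, 2.86 and 1.25 FPKM in MEC. In lines 199, 233 and 336 it had 3.69, 1.34 and 3.39 FPKM. *Mxd3* and *Myc* were both lowest in MEC 3, but in line 233 they stood apart, *Myc* at its highest and *Mxd3* close to its lowest. The log2 fold change of *Mxd3* (ENSMUSG00000021485.14, chromosome 13, 55325168 to 55329823, minus strand) was 0.22 (95% interval -0.66 to 1.09, limma adjusted p = 0.727).

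*Mxd4* and *Mxi1* encode the other MXD proteins, which are known from differentiated and resting cells. *Mxd4* (ENSMUSG00000037235.13, chromosome 5, 34173883 to 34187720, minus strand) had 10.2, 8.98 and 19.5 FPKM in MEC and 5.14, 12.0 and 13.8 FPKM in lines 199, 233 and 336. *Mxi1* (ENSMUSG00000025025.14, chromosome 19, 53310518 to 53375810, plus strand) had 8.08, 7.53 and 12.1 FPKM in MEC and 5.27, 9.48 and 8.63 FPKM in the lines in that order. Both genes were highest in MEC 3, the library with the lowest *Myc*, and lowest in line 199. The groups overlapped for both. The log2 fold change was -0.31 for *Mxd4* (95% interval -1.34 to 0.71, limma adjusted p = 0.661) and -0.23 for *Mxi1* (95% interval -0.89 to 0.43, limma adjusted p = 0.619). Without MEC 3 the difference of *Mxd4* was 0.01 rather than negative.

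*Mnt* and *Mga* encode the large MAX partners that are found in most cell types. *Mnt* (ENSMUSG00000000282.12, chromosome 11, 74830920 to 74845725, plus strand) was the steadiest of the 10, with 6.54, 6.17 and 6.78 FPKM in MEC and 5.92, 6.04 and 6.70 FPKM in lines 199, 233 and 336. Its 95% interval, -0.42 to 0.31 on the log2(FPKM + 1) scale, lay within 0.75 of 0 on both sides (limma adjusted p = 0.843). *Mga* (ENSMUSG00000033943.15, chromosome 2, 119897228 to 119969581, plus strand) had 9.13, 6.40 and 9.97 FPKM in MEC and 10.7, 8.54 and 9.41 FPKM in the lines. Its interval was -0.33 to 0.66 around a log2 fold change of 0.16 (limma adjusted p = 0.631).

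*Mlx* (ENSMUSG00000017801.15, chromosome 11, 101087277 to 101092207, plus strand) had 26.2, 30.6 and 27.0 FPKM in MEC and 25.7, 37.5 and 29.98 FPKM in lines 199, 233 and 336. Line 199 was below and line 233 above all MEC, and line 336 fell within their range. The log2 fold change was 0.13 (95% interval -0.30 to 0.57, limma adjusted p = 0.655). Of its partners, *Mlxip* had 12.0, 12.0 and 18.8 FPKM in MEC and 6.69, 7.41 and 8.72 FPKM in the lines, below all MEC in each line (log2 fold change -0.81, limma adjusted p = 0.0713). *Mlxipl* did not exceed 1.08 FPKM in any library.

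Exons of 4 of the 10 genes share bases with a gene on the opposite strand in the GENCODE annotation, and the strand setting of the counting is not given in the sources used here. The shared bases were 19.3% of the exon bases of *Mlx* (with *Psmc3ip*), 6.06% of *Mxd4*, 4.43% of *Mxd3* and 2.84% of *Mxi1*, so some reads of these 4 genes could belong to the neighbour. *Myc*, *Mycn*, *Max*, *Mxd1*, *Mnt* and *Mga* share none.

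In order of the group means, *Myc*, *Max*, *Mlx* and *Mxd4* came first, in that order, in both groups. *Mxi1*, *Mga* and *Mnt* followed in MEC at 9.25 ± 2.51, 8.50 ± 1.87 and 6.50 ± 0.309 FPKM. The means of *Mxi1* and *Mga* lay within each other's SD, and those of *Mga* and *Mnt* did not. In MEKO the order after *Mxd4* was *Mga* at 9.54 ± 1.08, *Mxi1* at 7.80 ± 2.23, *Mxd1* at 7.36 ± 5.95 and *Mnt* at 6.22 ± 0.418 FPKM (SD, n = 3). *Mxd3* and *Mycn* were last in MEKO, as they were in MEC.

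Each line was also compared with the 3 MEC in a fit with 4 groups, where the single library of a line was assumed to vary as the MEC do. In line 199, 0 of the 9 network genes were called, against 5.04% of tested genes higher and 7.94% lower. In line 233, 1 was called higher, against 5.06% of tested genes, and 0 lower, against 10.3%. In line 336, 0 were called, against 5.85% higher and 11.1% lower. At an unadjusted limma p under 0.05 there were 1, 4 and 2 of the 9 network genes in lines 199, 233 and 336, beside 36.7%, 33.5% and 36.4% of all tested genes. The gene called was *Mxd1* in line 233, with a log2 difference of 2.23 from the MEC mean (standard error 0.26, limma adjusted p = 0.0196). *Mxd1* was not called in line 199 (0.35, limma adjusted p = 0.394) or in line 336 (0.85, limma adjusted p = 0.109).

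*Max* in line 336 had a limma adjusted p of 0.0272 but a log2 difference of 0.72, under the fold limit. *Myc* was above the MEC mean by 1.10, 1.19 and 0.79 log2 units in lines 199, 233 and 336, and was not called in any (limma adjusted p = 0.129, 0.124 and 0.222). *Mxd4* was furthest from MEC in line 199, at -1.10 log2 units (limma adjusted p = 0.196). The differences between the lines were not tested, since each line has 1 library.

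**Figure D2:**
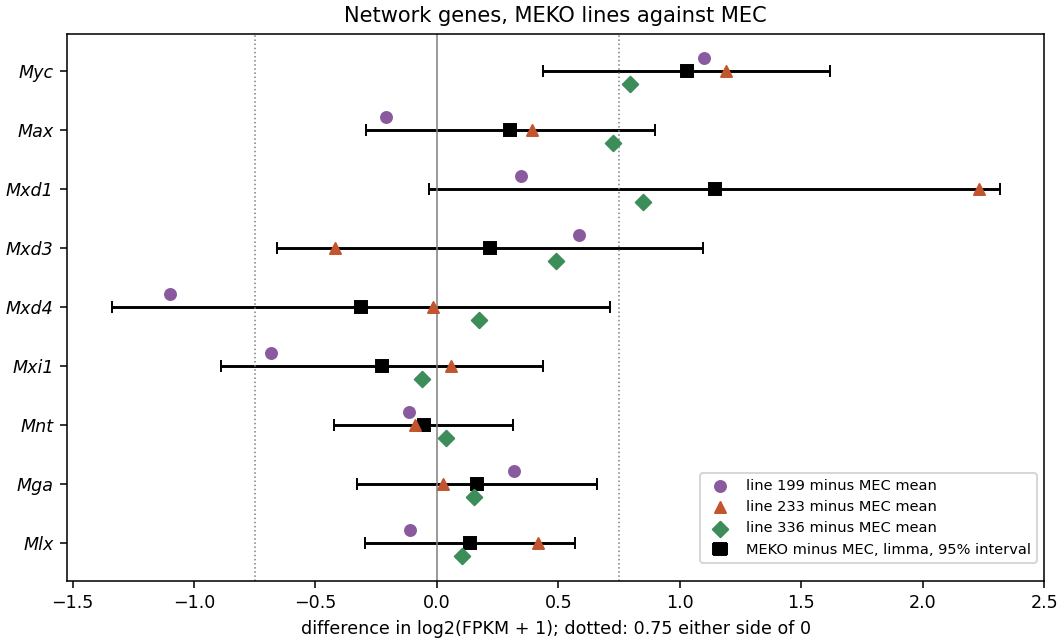
Difference from MEC in log2(FPKM + 1) for the 9 tested network genes: black squares are MEKO minus MEC with the 95% interval from limma, and colored points are each line minus the MEC mean. The interval of *Myc* (0.44 to 1.62) excludes 0, that of *Mxd1* just reaches it, and line 199 lies apart from lines 233 and 336 for *Max*, *Mxd4* and *Mxi1*.

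The MYC family and its antagonists were then summed in each library, as a description with no test. The sum of *Myc*, *Mycn* and *Mycl* was 81.1, 89.9 and 50.4 FPKM in MEC and 146, 148 and 114 FPKM in lines 199, 233 and 336. *Myc* supplied 87.2% to 91.0% of it in MEC, and 94.8%, 99.8% and 98.4% in the lines. The MXD-type sum of *Mxd1*, *Mxd3*, *Mxd4*, *Mxi1*, *Mnt* and *Mga* was 38.2, 34.1 and 52.5 FPKM in MEC and 33.8, 51.6 and 46.8 FPKM in the lines.

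The ratio of the first sum to the second was 2.12 in MEC 1, 2.63 in MEC 2 and 0.959 in MEC 3. In lines 199, 233 and 336 it was 4.32, 2.86 and 2.43. Line 336 was below MEC 2, so the groups overlapped in this ratio, although they did not in the MYC family sum. The mean was 1.91 ± 0.859 in MEC and 3.20 ± 0.992 in MEKO (SD, n = 3).

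The antagonists were made up differently in line 233. *Mxd1* was 27.4% of the MXD-type sum there, 9.17% in line 199, 10.3% in line 336 and 4.51% to 6.41% in MEC. *Mxd4* was the largest part in each MEC library, from 26.3% to 37.1%. In line 199 *Mga* was the largest part, at 31.6%. The MYC family sum relative to *Max* was 2.30, 2.51 and 1.42 in MEC and 4.78, 3.15 and 1.92 in lines 199, 233 and 336, highest in the line with the lowest *Max*.

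**Figure D3:**
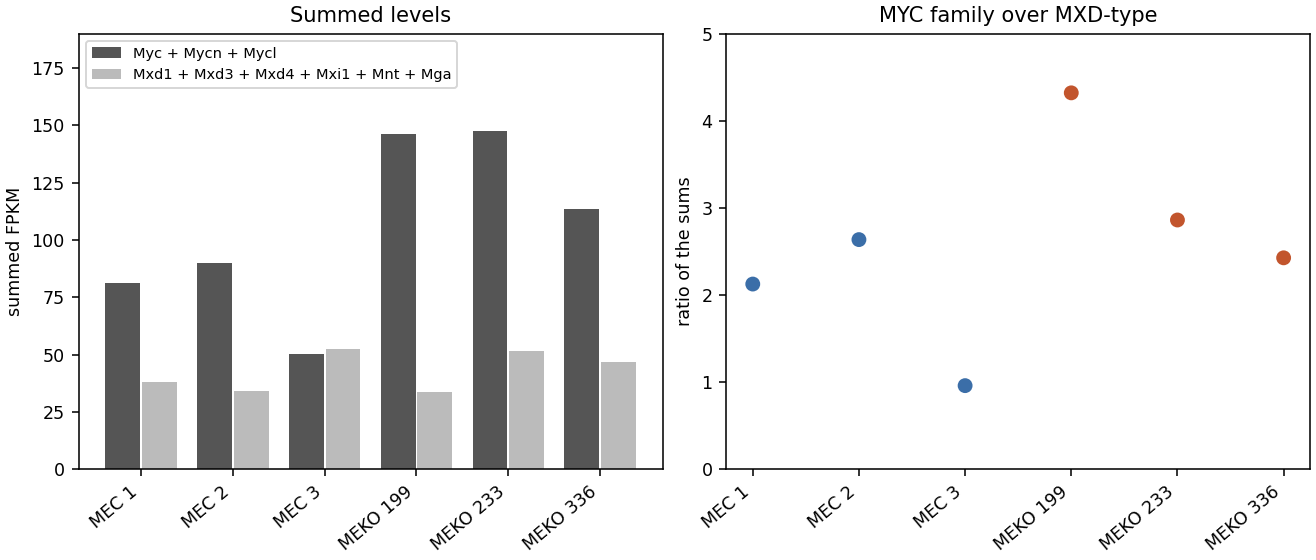
Left, summed FPKM of *Myc*, *Mycn* and *Mycl* (dark bars) and of the 6 MXD-type genes (light bars) in each library; right, the ratio of the 2 sums, with MEC in blue and MEKO in orange. The MYC family sum is above 113 FPKM in each line and at most 89.9 FPKM in MEC, while the ratio of line 336 (2.43) is below that of MEC 2 (2.63).

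The proteins with which the network acts were examined through lists of genes. Of 15 MYC coactivators tested, 0 were called higher and 1 lower, beside 2.64% and 7.26% of all tested genes. The lower one was *Zbtb17*, which encodes MIZ1, the partner through which MYC represses genes. *Zbtb17* had 10.4, 11.2 and 11.8 FPKM in MEC and 7.15, 4.57 and 5.58 FPKM in lines 199, 233 and 336. It fell by 0.86 on the log2(FPKM + 1) scale (standard error 0.19, limma adjusted p = 0.0408). Its call was kept without line 199, where 11.2% of all tested genes were called lower. It was lost when any other library was left out, MEC 1, 2 or 3 or line 233 or 336 (limma adjusted p up to 0.15). Without each of those libraries, 1.7% to 6.27% of all tested genes were called lower. The median log2 fold change of the coactivators was 0.25, and 12 of the 15 were above 0, beside 51.2% of all tested genes.

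Among 17 subunits of the SIN3 and NCOR corepressors, which MXD proteins and MNT recruit, 0 were called (limma). There were 2 higher and 3 lower at an unadjusted limma p under 0.05, beside 12.4% and 15.7% of all tested genes. Their median log2 fold change was -0.03. Without MEC 1, MEC 3 or line 233 this median was just above 0, at most 0.06. Against MEC, lines 233 and 336 each had 3 of the 17 called lower, beside 10.3% and 11.1% of all tested genes, and line 199 had 0, beside 7.94%. *Hdac1*, which encodes a histone deacetylase and is named after its values were seen, had 67.4, 72.7 and 71.8 FPKM in MEC, 56.6 FPKM in line 199, 23.5 FPKM in line 233 and 36.1 FPKM in line 336. Without line 199, *Hdac1* was called lower over the other lines. Calls lower over all tested genes then rose from 7.26% to 11.2%.

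MGA and MAX sit in a polycomb complex, PRC1.6, that silences germline genes in other tissues. Of its 10 other subunits 0 were called (limma). There were 2 higher and 1 lower at an unadjusted limma p under 0.05, beside 12.4% and 15.7% of all tested genes. The median log2 fold change was 0.18, or 0.10 without line 199. *Tfdp2*, an E2F partner named after its values were seen, had 6.17, 5.68 and 6.25 FPKM in MEC. It had 4.47 FPKM in line 199 and 1.44 and 1.47 FPKM in lines 233 and 336. Without line 199, where 11.2% of all tested genes were called lower, *Tfdp2* was called lower. *Tfdp1*, another E2F partner on the list and named likewise, went the other way. It had 65.9, 70.9 and 45.8 FPKM in MEC and 113, 93.5 and 77.9 FPKM in lines 199, 233 and 336 (log2 fold change 0.64, limma adjusted p = 0.129). Of 10 germline genes known as targets of the complex, 9 were at or below 0.26 FPKM in every library. The tenth, *Tdrkh*, had 1.19, 1.35 and 0.37 FPKM in MEC and 2.77, 0.43 and 0.62 FPKM in the lines, and was not called (limma adjusted p = 0.901).

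The promoters of these germline genes held the E-box in 8 of 11 entries, beside 7.15% of all promoters. The *Stk31* entries among them hold the same site, which is counted once per entry. The genes were listed as known targets of a complex with MGA and MAX, so the share describes the list. *Ddx4*, which encodes a germ cell RNA helicase, is shown as an example of such a site beside a gene at 0.05 to 0.25 FPKM in all 6 libraries.
*Ddx4*, chr13:112652322-112652351, minus strand: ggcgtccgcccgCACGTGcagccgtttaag

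MYC protein is short-lived, and 16 genes for its turnover were listed. None was called by limma. At an unadjusted limma p under 0.05, 4 were higher and 1 lower, beside 12.4% and 15.7% of all tested genes. The median log2 fold change was 0.25, or 0.06 without line 199. *Fbxw7*, the ligase that marks phosphorylated MYC for degradation and is named after its values were seen, had 10.8, 11.5 and 15.9 FPKM in MEC and 8.98, 6.36 and 4.97 FPKM in lines 199, 233 and 336 (log2 fold change -0.83, limma adjusted p = 0.092). Without line 199, where 11.2% of all tested genes were called lower, *Fbxw7* was called lower. It was not called with any other single library left out. *Skp2*, another MYC ligase and also a cell cycle gene, had 5.63, 4.81 and 3.29 FPKM in MEC and 13.0, 9.51 and 7.61 FPKM in the lines (log2 fold change 0.98, limma adjusted p = 0.064). For both genes the groups did not overlap. Of the 16 genes, 6 had all lines above all MEC and 2 had all below, beside 18.5% and 18.7% of all tested genes.

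Genes commonly listed as activated by MYC stood higher as a list than any other examined except the proliferation list. Of 48 tested, 5 were called higher, against 2.64% of all tested genes, and 0 lower, against 7.26%. At an unadjusted limma p under 0.05, 23 were higher and 0 lower, beside 12.4% and 15.7% of all tested genes. The median log2 fold change was 0.60, and 43 of the 48 were above 0, beside 51.2% of all tested genes. In 26 of them all lines were above all MEC, beside 18.5% of all tested genes, and in 0 they were all below. The median difference from MEC on the log2(FPKM + 1) scale was 0.81, 0.56 and 0.51 for lines 199, 233 and 336. *Myc* itself was not on the list.

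*Odc1*, the first enzyme of polyamine synthesis, had the largest increase of the list. It had 95.6, 120 and 54.4 FPKM in MEC and 278, 182 and 233 FPKM in lines 199, 233 and 336, a log2 fold change of 1.40 (limma adjusted p = 0.0428). *Cad*, which starts pyrimidine synthesis, had 17.2, 15.3 and 9.41 FPKM in MEC and 36.7, 40.2 and 30.5 FPKM in the lines (1.33, limma adjusted p = 0.0245). *Hk2*, a hexokinase of glycolysis, had 10.2, 11.3 and 7.55 FPKM in MEC and 21.3, 19.5 and 18.0 FPKM in the lines (0.96, limma adjusted p = 0.0275). *Hspd1*, the mitochondrial chaperonin HSP60, had 180, 197 and 142 FPKM in MEC and 316, 274 and 348 FPKM in the lines (0.86, limma adjusted p = 0.0328). *Rrs1*, a ribosome assembly factor that is the smallest of the 5 increases, had 37.6, 43.6 and 31.0 FPKM in MEC and 65.1, 63.6 and 62.1 FPKM in the lines (0.76, limma adjusted p = 0.0351). In each of the 5 genes MEC 3 was the lowest library and every line was above every MEC.

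Like the call of *Myc*, these calls depended on single libraries. The list had 0 calls without MEC 1 or without MEC 2 and 1 without MEC 3. It had 3 without line 199, 2 without line 233 and 1 without line 336. Over all tested genes, calls higher fell from 2.64% to 0.386%, 0.451% and 0.719% without MEC 1, 2 and 3. They were 4.57%, 1.99% and 1.97% without lines 199, 233 and 336. *Cad* was kept in 10 of 13 alternatives, *Hk2* and *Hspd1* in 8, and *Odc1* and *Rrs1* in 4. MEC 3 was the lowest library in 40 of the 48 genes, and without it the median of the list was 0.42. Line 199 was the highest library in 27 of the 48. The proliferation list, of which 9 of 10 genes were highest in line 199, had a median of 0.83 with 0 genes called (limma). Of the 10, 4 were higher at an unadjusted limma p under 0.05, beside 12.4% of all tested genes. Without MEC 3 its median was 0.45. Whether the MYC-activated genes moved with proliferation rather than with *Myc* was not tested.

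In their promoters, 14 of 49 entries for MYC-activated genes held CACGTG (7.15% of all promoters and 9.98% of those of tested genes). As many, 14 of 49, held an E2F motif, TTCCCGC or TTGGCGC (6.81% and 12.0%). The count for CACGCG was also 14 of 49 (9.27% and 17.0%). Of the 5 genes called, *Odc1*, *Cad*, *Hk2* and *Hspd1* had an entry. From each of the 2 that held CACGTG or CACGCG, 1 such site is given, since these genes are among the increases that the result rests on.
*Hspd1*, chr1:55088306-55088335, minus strand, CACGTG: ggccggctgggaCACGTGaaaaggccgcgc
*Odc1*, chr12:17544760-17544789, plus strand, CACGCG: cgggtgggtgggCACGCGctgcgccccgcc
The *Odc1* promoter held a second CACGCG on the other strand, and an *Hspd1* promoter held CACGCG after its start. *Cad* and *Hk2* held neither CACGTG nor CACGCG in this window.

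Genes listed as repressed by MYC gave no call in either direction over the 3 lines (11 tested, limma). At an unadjusted limma p under 0.05, 1 was higher and 4 lower, beside 12.4% and 15.7% of all tested genes. The median log2 fold change of the 11 was -0.54. This median rested on line 233, without which it was 0.02, and it was -0.13 among the genes with a mean of at least 5 FPKM. *Ndrg1*, a stress and differentiation gene named after its values were seen, had 52.9, 53.9 and 46.3 FPKM in MEC and 27.8, 3.03 and 8.38 FPKM in lines 199, 233 and 336. It was called lower in each line on its own (limma adjusted p = 0.0466, 0.00506 and 0.00721), but not over the 3 lines (log2 fold change -2.34, limma adjusted p = 0.0764). *Cdkn1a*, which encodes the cell cycle inhibitor p21 and is named likewise, had 85.2, 97.6 and 88.6 FPKM in MEC, 73.8 FPKM in line 199, and 268 and 304 FPKM in lines 233 and 336. It was called higher in lines 233 and 336 on their own (limma adjusted p = 0.0113 and 0.0098). Without line 199, where 4.57% of all tested genes were called higher and 11.2% lower, 4 of the 11 were called, *Ndrg1*, *Gas1* and *Cebpa* lower and *Cdkn1a* higher. Without line 233 (1.99% of all genes higher and 6.27% lower), *Fth1* alone was called, higher, a gene with many processed copies that could share its reads. None of the 3 tested targets of MLX and the MONDO proteins was called (limma, and 0 at an unadjusted p under 0.05). They included *Txnip*, an inhibitor of glucose uptake, which had 37.2, 36.7 and 59.7 FPKM in MEC and 47.7, 41.3 and 77.6 FPKM in the lines.

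**Figure D4:**
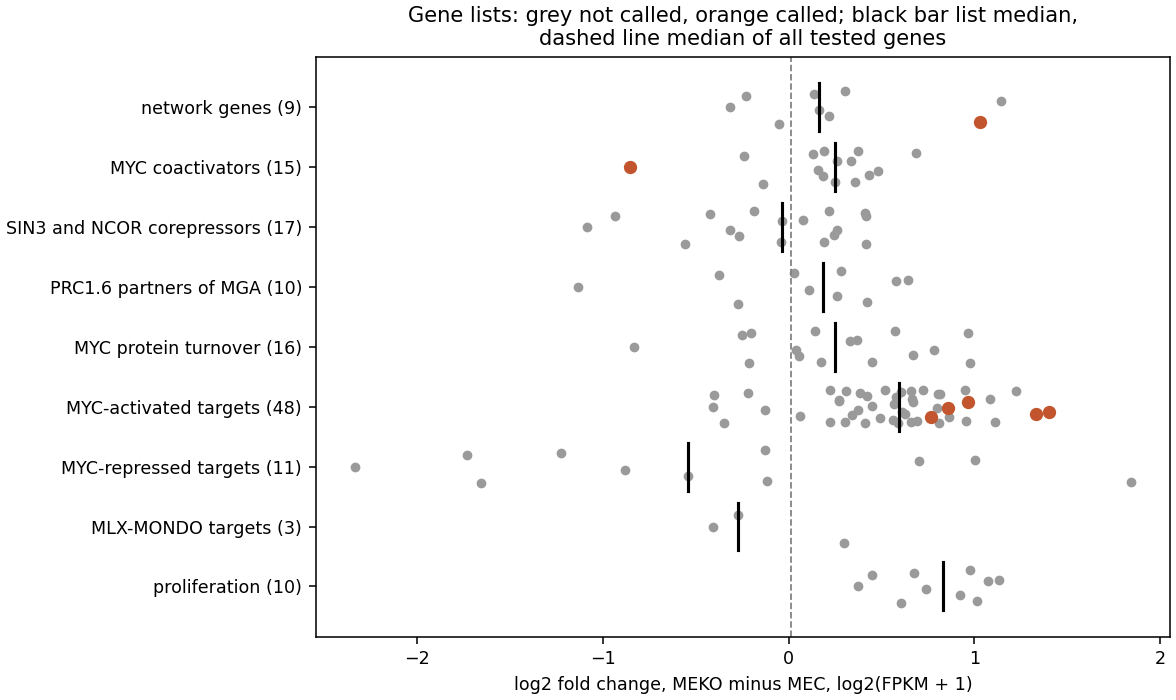
Log2 fold change of each tested gene, MEKO minus MEC on the log2(FPKM + 1) scale, by list (number tested in brackets); orange points were called, black bars are list medians, and the dashed line is the median of all tested genes. The MYC-activated genes center on 0.60 with 5 called, and the proliferation genes on 0.83 with none called; lists with 1 or 2 tested genes are not drawn.

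The neighbours of *Myc* on chromosome 15 were examined as a description, with no test over them. Within 2 Mb on either side 4 other entries were tested, and their median log2 fold change was -0.19. *Pvt1*, the long noncoding RNA gene that follows *Myc* (chromosome 15, 62037986 to 62378096), had 3.52, 3.26 and 5.66 FPKM in MEC and 8.17, 7.88 and 6.36 FPKM in lines 199, 233 and 336, above all MEC in each line (log2 fold change 0.74, limma adjusted p = 0.0985). *Fam84b*, on the other side of *Myc*, had 21.9, 21.1 and 30.03 FPKM in MEC and 11.5, 14.8 and 7.52 FPKM in the lines, below all MEC in each (-1.07, limma adjusted p = 0.056). *Fam49b* and *9930014A18Rik* had log2 fold changes of 0.08 and -0.46. Copy number was not analysed here.

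The genes whose pattern over the 6 libraries was most like that of *Myc* were taken from the 640 tested entries with a log2 fold change within 0.25 of its own. The highest Pearson's r with *Myc* on the log2(FPKM + 1) scale was that of *Thop1*, a peptidase gene, at 0.997, with 20.6, 21.2 and 12.8 FPKM in MEC and 33.3, 33.9 and 27.7 FPKM in lines 199, 233 and 336. *Ndc1*, a nuclear pore gene, followed at 0.996, and *Ugdh*, an enzyme of glycosaminoglycan precursor synthesis, at 0.988. The next were the ribosomal protein pseudogene *Rpl21-ps8*, whose reads could belong to its parent gene, and the joined entry of *Gm16314* and *Gnb1l*, both at 0.988. These values were selected for being high and describe the libraries, and of the 5 only *Ugdh* was called (limma adjusted p = 0.0487).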

How the data were processed

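Libraries were made with an Illumina TruSeq kit and sequenced as paired-end reads of 150 bp. The authors trimmed the reads, placed them on the mouse genome mm10 (TopHat2 2.0.14 over Bowtie2) and estimated FPKM per gene with Cufflinks (2.2.1). The deposited table holds these FPKM values for 37755 entries, of which 2 had none. FPKM carries no read numbers, so depth is unknown and no counting interval or floor is given. Ratios of small values put the relative depth of the libraries between 0.92 and 1.30 of MEC 1. Summed FPKM was 557991 to 638365 per library.

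Where several rows held a symbol, the row with the highest mean was used. MEKO was compared with MEC (3 libraries each) by limma 3.58.1 in R 4.3.3 on log2(FPKM + 1), letting the variance follow the mean level, and p was adjusted by Benjamini-Hochberg over the 12461 entries with a mean of at least 1 FPKM. Adding 1 makes the fold changes of low genes too small. The fit was tested on simulated data. Replicates are separate preparations or separate lines. The network genes, the lists (written by hand from general knowledge) and the tests were chosen with earlier results of these data known. All 10 network genes are named. Of each list, every called gene is named, or the 4 with the largest change where more than 4 were called, besides those said to be named after their values were seen. *Rrs1*, the fifth called gene of its list, *Mycl*, *Mlxip*, *Mlxipl*, *Mki67*, *Txnip*, *Tdrkh*, *Ddx4*, *Skp2* and the neighbours of *Myc* were named likewise. *Slc7a5*, on the list of MYC-activated genes, was not found in the table. Coordinates are from GENCODE M21 (GRCm38, as mm10) and promoter sequences from RefSeq. *Myc* and *Rrs1* had no promoter entry.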

Additional observations from a re-analysis of the deposited data

Results flagged for a closer look

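*Max*, *Mlx* and *Ccnd2* lay on opposite sides of MEC in different lines, a difference between lines that was not tested because each line has 1 library. *Max* was below all MEC in line 199 and above all MEC in the other two, and line 199 minus line 233 was -0.60 and line 199 minus line 336 was -0.93 on the log2(FPKM + 1) scale. *Mlx* was below all MEC in line 199 and above all MEC in line 233, a difference of -0.53. *Ccnd2*, a cyclin gene on the list of MYC-activated genes, had 21.1, 21.0 and 15.6 FPKM in MEC, 76.2 FPKM in line 199, 17.2 FPKM in line 233 and 1.44 FPKM in line 336. It was called higher in line 199 (limma adjusted p = 0.0265) and lower in line 336 (limma adjusted p = 0.0102), and line 199 minus line 336 was 4.98.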

How the results depend on the processing

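The number of network genes called higher was 0 with a pseudocount of 0.1, no filter, a mean of at least 5 FPKM, quantile normalization, upper-quartile scaling or no trend, 2 with sample weights (*Myc* and *Mxd1*), and 0 to 0 with each library left out. The number called lower was 0 throughout. Over all tested genes, 4.82% were called higher and 11.1% lower with sample weights. With a library left out, 0.386% to 4.57% were called higher and 1.7% to 11.2% lower. *Myc* kept its direction in all 13 alternatives, and *Max* and *Mxd1* in all that could be run (13 and 12). The log2 fold change of each of the other tested network genes turned sign under at least 1 alternative. For *Mxd3* it was -0.10 with sample weights and -0.021 to 0.54 with a library left out, negative without MEC 3. For *Mxd4* it was 0.091 with sample weights and -0.56 to 0.079 with a library left out, positive without MEC 3 (0.0051) and without line 199. It was 0.031 for *Mxi1* with sample weights and 0.074 for *Mnt* with quantile normalization. With a library left out it was -0.0051 to 0.28 for *Mga*, negative without MEC 2, and -0.0050 to 0.26 for *Mlx*, negative without line 233. The causes were not tested.

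Over all genes, sample weights gave 600 higher and 1378 lower, a mean of at least 5 FPKM gave 501 lower, and leaving out 1 library gave 48 to 568 higher and 211 to 1398 lower. Quantile normalization moved the median of all genes from 0.01 to 0.10. Without a filter, 1035 genes were called in line 199 and 1385 in line 336. *Mxd1* was not called in line 233 without a filter (0 network genes), nor with a mean of at least 5 FPKM (0), which leaves it out.

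By list, the calls with sample weights were 1 in the extended network (*Mycl*), 2 in the corepressors and 1 in the PRC1.6 partners, all lower. The MYC-repressed genes had 5, of which *Cdkn1a* was higher and the rest lower. With sample weights, 4.82% of all tested genes were called higher and 11.1% lower. Coactivators had 0 without a filter and 0 at 5 FPKM, beside 3.82% and 5.44% of all tested genes called lower. Turnover had 1, higher, with quantile normalization, beside 3.83% of all tested genes. MYC-activated genes had 3, all higher, with upper-quartile scaling, beside 2.26%. With each library left out, the range was 0 to 1 for the extended network, coactivators, PRC1.6 partners and turnover. It was 0 to 2 for corepressors, 0 to 3 for MYC-activated and 0 to 4 for MYC-repressed genes. Over all tested genes, 0.386% to 4.57% were then called higher and 1.7% to 11.2% lower. The mean ratio of MYC family to MXD-type mRNA became 4.26 in MEKO without *Mga*, and 3.06 in MEC and 5.39 in MEKO with *Mxd1*, *Mxd3*, *Mxd4* and *Mxi1* only. With a library left out the mean ratio was 1.54 to 2.38 in MEC and 2.64 to 3.59 in MEKO. For the neighbours of *Myc*, 5 Mb on either side gave a median of -0.06.

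No paired analysis was possible because MEC and MEKO share no replicate numbers. FPKM gives no reads from which to judge the low levels of *Mycn*, *Mxd1* and *Mxd3*.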
